A study of Mus musculus with 6 samples.

Results

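The transcripts examined here encode the machinery that makes microRNAs and puts them to use. They were chosen by name: Dicer1, Drosha, Dgcr8, Xpo5, Tarbp2, Prkra, Ago1, Ago2, Ago3 and Tnrc6a, 10 genes among the 31469 rows of the deposited expression table. Each name had 1 row, and all 10 stood at 1 TPM or more in every library. TPM, the unit of the table, is a length-scaled share of a library, so it allows levels of different genes to be compared.

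RNA was sequenced from parvalbumin-expressing sensory neurons of C57BL/6 mice at postnatal day 21, taken from lumbar dorsal root ganglia (level 4). The 3 libraries called WT were labelled wild-type, and the 3 called KO were labelled as a Dicer knockout driven by Pvalb, with the design text naming a parvalbumin Cre. Cre expressed from the parvalbumin gene acts in cells that have turned that gene on and is meant to spare the other cells of the ganglion. The sources used here do not give the floxed allele, the exon it removes, the Cre status of the wild-type animals or the number of animals behind each library. The p-values therefore measure the spread between these libraries, which may be technical.

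MicroRNAs are short RNAs that lower the output of messenger RNAs they pair with. In the nucleus Drosha, an RNase III enzyme, and its partner Dgcr8 cut a hairpin out of the primary transcript, and Xpo5 (exportin 5) carries it to the cytoplasm. There Dicer1, helped by the double-stranded RNA-binding proteins Tarbp2 and Prkra, trims the hairpin to a short duplex, and 1 strand is loaded into an Argonaute protein. Tnrc6a, of the GW182 family, links Argonaute to the enzymes that shorten and decap the target. In sensory neurons, as in other neurons, microRNAs are known to take part in maintaining the differentiated state.

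Some members are themselves tied to microRNAs by sequence. The second exon of Dgcr8 holds 2 microRNA hairpins, so the Drosha complex can cut the messenger RNA of its own subunit, a known feedback. The mature strands of these hairpins are shown from RefSeq (GRCm38.p6, minus strand of chromosome 16, seed bases 2 to 8 in capitals). Both strands of miR-1306 lie in the coding part of the exon and those of miR-3618 outside it.
mmu-miR-1306-5p (chr16:18284288-18284310): cACCACCUccccugcaaacgucc
mmu-miR-1306-3p (chr16:18284248-18284268): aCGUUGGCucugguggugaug
mmu-miR-3618-5p (chr16:18284602-18284623): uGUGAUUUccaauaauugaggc
mmu-miR-3618-3p (chr16:18284562-18284583): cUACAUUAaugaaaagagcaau
None of the 4 strands shares a seed with another.

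Dicer messenger RNA is also a known target of microRNAs, among them miR-103 and let-7. The 3′ UTRs of the members' principal GENCODE transcripts were searched on the transcript strand for the 7-base complement of each seed. It was CTACCTC for let-7 and ATGCTGC for miR-103. The 2 motifs can share at most 1 base at their ends. The microRNAs are shown with the seed in capitals, and the sites with the matching bases in capitals, on GRCm38.
mmu-let-7a-5p: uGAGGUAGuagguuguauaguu
Ago2 site 1 (chr15:73101718-73101747, minus strand): gacagatgcataaaagCTACCTCtgacttc
Ago2 site 2 (chr15:73100034-73100063, minus strand): gcaggtggcctctgtcCTACCTCcaggcac
Ago2 site 3 (chr15:73097976-73098005, minus strand): cttttacaatgtggatCTACCTCagttaaa
mmu-miR-103-3p: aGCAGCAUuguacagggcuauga
Dicer1 site (chr12:104690163-104690192, minus strand): gctgatgcttcatgtaATGCTGCacttagg
The let-7 motif was in the 3′ UTRs of 3 of the 10 members, with 3 copies in Ago2 and 1 each in Ago3 and Tarbp2, and its letters were not in the Dicer1 3′ UTR. The coding part, 5718 of the 9851 bases of the Dicer1 transcript, was not searched, nor were other kinds of site. The search therefore does not show that Dicer1 lacks let-7 sites. The miR-103 motif was in 6 members, with 2 copies in Ago2 and 1 each in Dicer1, Dgcr8, Tarbp2, Ago1 and Ago3. For the background, the longest 3′ UTR of each gene's protein-coding transcripts was taken, whether or not that transcript was principal. Of 21022 genes with a 3′ UTR, 9.02% held the let-7 motif and 11.3% the miR-103 motif. Among the 1675 whose 3′ UTR was within 20% of the 3851 bases of Dicer1, the shares were 20.5% and 27.3%. The 3′ UTRs of Ago2 and Ago3 have 11064 and 12742 bases, so they have more room for a match than most.

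The tissue label was checked against marker genes. The 6 proprioceptor markers found in the table summed to 1511 to 1651 TPM in WT and 797 to 981 TPM in KO libraries. Of these 6, limma called 4 lower, beside 3.17% of all tested rows. All 6 were lower in KO without overlap between genotypes, beside 17.1% of all tested rows. Pvalb itself was at 22.6 ± 2.71 TPM in WT and 7.23 ± 5.85 TPM in KO (SD, n = 3). Satellite glia, which wrap the neuron bodies, left transcripts in every library: their 8 markers summed to 854 to 1915 TPM in WT and 465 to 1013 TPM in KO libraries, with 2 of 8 called lower (3.17% of all rows). Glul, one of the 8, went the other way without overlap, from 149 ± 48.4 to 227 ± 16.8 TPM (SD, n = 3), a log2 difference of 0.65 that was not called (limma adjusted p = 0.105). Sums in WT and KO were 15.2 to 31.7 and 12.0 to 21.7 TPM for 5 Schwann cell markers, 6.02 to 8.76 and 3.45 to 5.33 TPM for 5 macrophage markers, and 20.2 to 43.2 and 26.9 to 41.6 TPM for 4 fibroblast markers. For the 4 endothelial and mural markers they were 12.7 to 20.3 and 19.4 to 29.6 TPM, for the 2 erythroid markers found 3.99 to 20.2 and 12.5 to 54.8 TPM, and for 3 muscle markers 0.51 to 4.35 and 2.06 to 4.56 TPM. The macrophage marker C1qa and the Schwann cell marker Pmp2 were at 0 in all libraries. Replicate 3 of each group lacked Xist (0.06 and 0 TPM) and the other 4 libraries had 22.2 to 69.5 TPM. The libraries held 13237 to 13960 rows at 1 TPM or more.

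Dicer1, the targeted gene, was lower in every KO library than in any WT library, but its transcript was far from lost. Dicer1 (ENSMUSG00000041415, GRCm38 chromosome 12, 104687742 to 104751952, minus strand) stood at 36.7, 26.0 and 48.7 TPM in WT replicates 1 to 3 and at 24.0, 20.8 and 21.8 TPM in the KO replicates. The groups did not overlap, yet WT replicate 2 was 2.03 TPM above the highest KO library, and the WT values were far more scattered, with a coefficient of variation of 30.6% against 7.30%. The KO mean was 40.3% below the WT mean. On the log2(TPM + 1) scale the difference was -0.68 (SE 0.22, 95% interval -1.17 to -0.18), with a limma adjusted p of 0.104, so that Dicer1 did not pass the threshold of 0.05. The interval corresponds to KO levels between 0.445 and 0.881 of WT. Without WT replicate 2 the difference was -0.90 (limma adjusted p = 0.0412), the one setting of 18 in which Dicer1 was called, and the adjusted p ranged up to 0.431 over the others.

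A whole-gene value has a narrow bearing on the deletion itself, as the exon structure shows. The principal Dicer1 transcript has 27 exons and 9851 bases, of which 5718 are coding. Its 24 wholly coding exons have 76 to 871 bases, or 0.772% to 8.84% of the transcript (median 1.64%), and 19 of them have a length that is not a multiple of 3, so that skipping one shifts the reading frame. Loss of any one of these exons from an otherwise stable transcript takes away at most 8.84% of its length. How far such a loss would change the TPM value was not computed. The WT values had a coefficient of variation of 30.6%. The last exon, which carries the whole 3′ UTR, holds 40.8% of the length by itself. The table gives 1 value per gene and none per exon. It can therefore show that KO libraries held less Dicer1 transcript, and not which exon was missing, in what share of the cells, or whether functional Dicer protein remained. In a bulk sample, fewer cells with the transcript and less transcript per cell cannot be told apart.

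**Figure D1:**
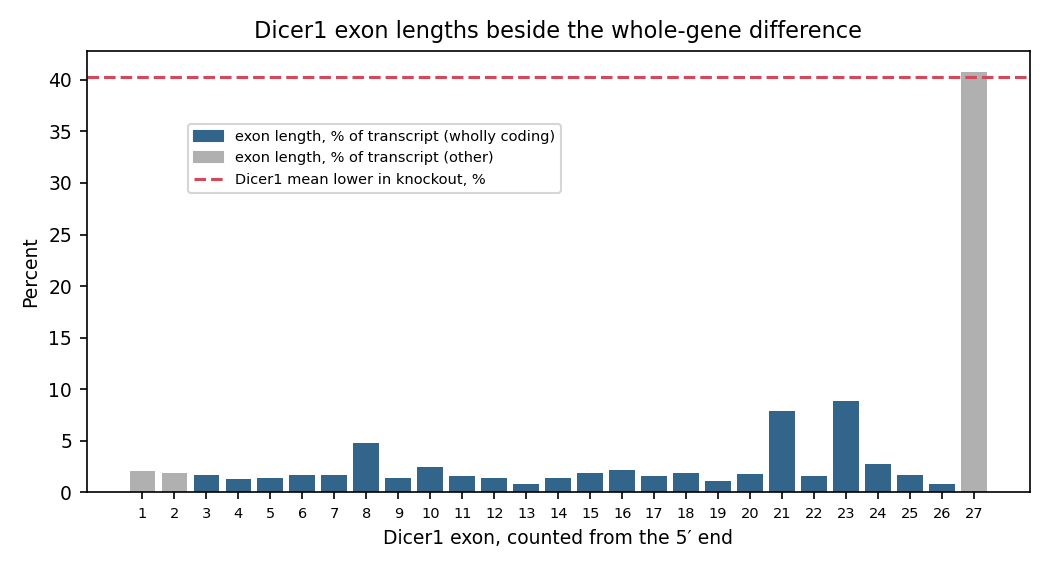
Length of each Dicer1 exon as a percentage of the principal transcript (bars, exons counted from the 5′ end; blue for wholly coding exons, grey for the first, second and last), with the percentage by which the KO mean lay below the WT mean (dashed line, 40.3%). Wholly coding exons reach at most 8.84%, and the last exon's 40.8% is the share of a mostly untranslated exon. A share of length is not a predicted change in TPM.

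The level of satellite glia transcripts varied between libraries in the same order as Dicer1 within WT. The mean log2(TPM + 1) of the 8 satellite glia markers was 5.94, 5.10 and 6.57 in WT replicates 1 to 3 and 5.03, 4.41 and 5.59 in the KO replicates. WT replicate 3 was highest and WT replicate 2 lowest in both measures. Within KO the orders differed: the glial level was highest in replicate 3 and Dicer1 in replicate 1 (24.0 TPM). KO replicate 3 had more of the glial transcripts than WT replicate 2 and less Dicer1 (21.8 against 26.0 TPM). When this glial level was added to the model, the Dicer1 difference was -0.34 (limma adjusted p = 0.431). The glial level itself differed with genotype: 7 of its 8 markers were lower in KO and 1 higher (median -0.98). Over all rows, the calls went from 693 to 173 in this model. Glial level and genotype therefore cannot be told apart here, and how much of the Dicer1 signal came from glial cells was not tested.

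**Figure D2:**
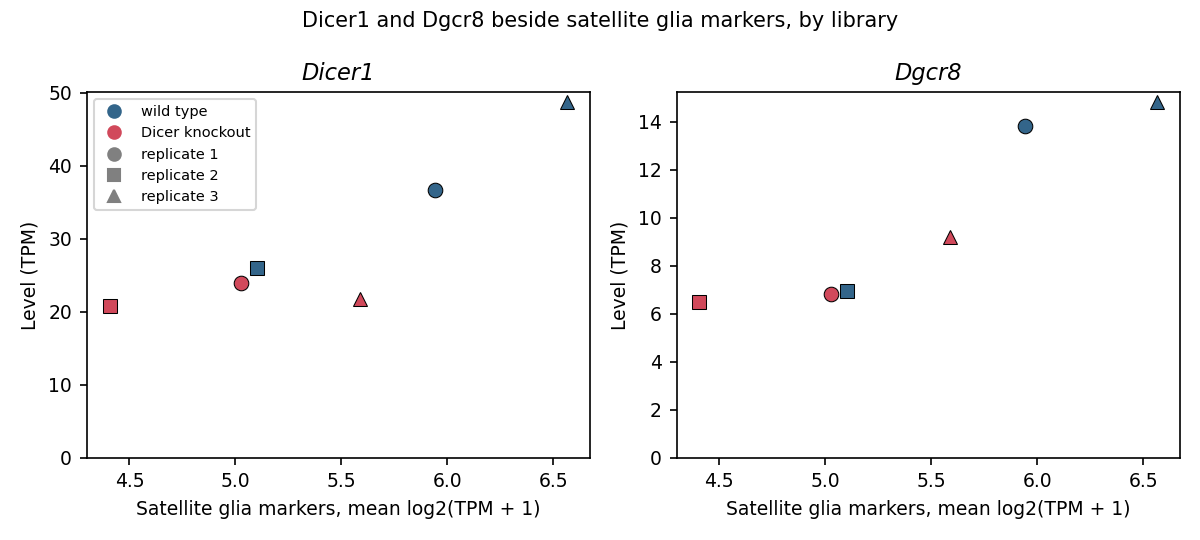
Dicer1 (left) and Dgcr8 (right) in TPM against the mean log2(TPM + 1) of 8 satellite glia markers, 1 point per library, colour for genotype and shape for replicate number. In WT, replicate 3 is highest and replicate 2 lowest on both axes for both genes. In KO this holds for Dgcr8, while Dicer1 is highest in replicate 1.

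Neither subunit of the nuclear cutting complex was called. Drosha (ENSMUSG00000022191, chromosome 15, 12824815 to 12935291) varied least of the 10 members across the 6 libraries (coefficient of variation 4.74%, beside 36.9% for Dicer1 and 38.6% for Dgcr8), at 36.7, 39.6 and 37.3 TPM in WT and 39.9, 37.7 and 35.2 TPM in KO. The groups overlapped throughout. Its difference of -0.01 had an interval of -0.30 to 0.28 (SE 0.13, limma adjusted p = 0.972), which leaves room for KO levels from 0.812 to 1.21 of WT, and its sign changed with the scaling of the libraries. Dgcr8 (ENSMUSG00000022718, chromosome 16, 18253948 to 18289246) was at 13.8, 6.94 and 14.8 TPM in WT and 6.84, 6.48 and 9.19 TPM in KO. WT replicates 1 and 3 were above all KO libraries, and WT replicate 2 lay among them. Dgcr8 averaged 11.9 ± 4.29 TPM in WT and 7.50 ± 1.47 TPM in KO (SD, n = 3), a difference of -0.55 (interval -1.22 to 0.12, limma adjusted p = 0.302).

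Dgcr8 and Dicer1 shared the low WT replicate 2 and the high WT replicate 3. In the model with the glial level, the Dgcr8 difference was -0.05, and there too glial level and genotype cannot be told apart. The Dgcr8 level was 0.376, 0.175 and 0.397 of the Drosha level in WT and 0.171, 0.172 and 0.261 in KO (exact permutation test, two-sided p = 0.2; 0.1 is the smallest that 3 against 3 libraries can give). Dicer1 stood at 0.998, 0.656 and 1.31 of Drosha in WT and 0.600, 0.551 and 0.619 in KO. These Dicer1 ratios did not overlap between genotypes, and the exact two-sided p was 0.1.

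Xpo5 (ENSMUSG00000067150, chromosome 17, 46202782 to 46243598), the export receptor of precursor hairpins, was at 25.3, 41.8 and 32.2 TPM in WT and 23.5, 27.2 and 23.1 TPM in KO. The highest KO library lay above the lowest WT library, and WT replicate 2, which was lowest for Dicer1, was highest here. The KO mean was 25.8% lower, at a difference of -0.39 (interval -0.83 to 0.05, limma adjusted p = 0.263).

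Both double-stranded RNA-binding partners of Dicer had lower means in KO, and neither was called. Prkra (ENSMUSG00000002731, chromosome 2, 76629898 to 76648015), known as PACT, was at 17.6, 20.1 and 15.5 TPM in WT and 12.1, 9.62 and 17.1 TPM in KO. KO replicate 3 stood within the WT range and the other 2 KO libraries below it. The difference was -0.45 (interval -0.97 to 0.07, limma adjusted p = 0.269). Tarbp2 (ENSMUSG00000023051, chromosome 15, 102518192 to 102523676), known as TRBP, was at 13.9, 10.4 and 14.9 TPM in WT and 10.4, 17.0 and 7.87 TPM in KO. Its KO values spread over more than the WT range on both sides, and the difference of -0.19 (interval -0.82 to 0.45, limma adjusted p = 0.727) turned to 0.04 without KO replicate 3. Where 1 partner was high in a KO library the other was low. Summed, they gave 31.6, 30.5 and 30.4 TPM in WT and 22.6, 26.7 and 25.0 TPM in KO. These groups did not overlap (exact permutation test, two-sided p = 0.1, the smallest that 3 against 3 libraries can give). Among single rows, 17.1% of all tested were lower in KO without overlap. Relative to Dicer1 the summed partners were at 0.860, 1.17 and 0.624 in WT and 0.942, 1.28 and 1.15 in KO, with overlap.

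**Figure D3:**
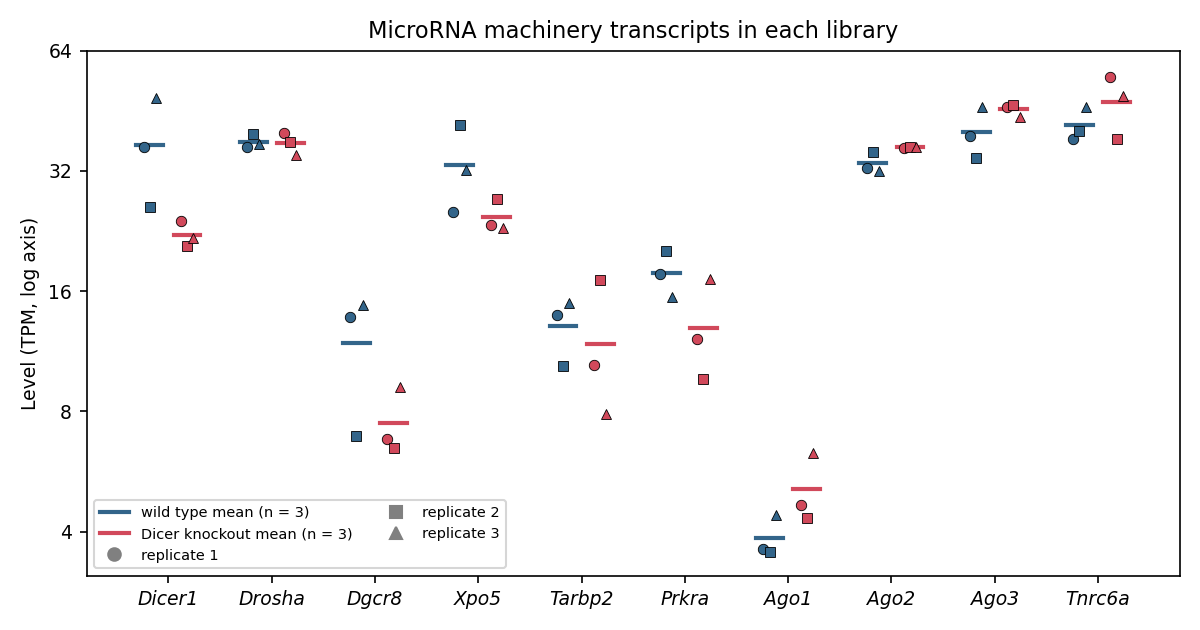
Level of each member in TPM (log axis) in the 3 WT (blue) and 3 KO (red) libraries; symbols mark replicate numbers and horizontal bars group means. Dicer1 and Ago2 are the members whose groups do not overlap, Dicer1 lower and Ago2 higher in KO.

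Ago1, Ago2 and Ago3 had slightly higher means in KO libraries, and none was called. Ago2 (ENSMUSG00000036698, chromosome 15, 73095844 to 73184935) encodes the Argonaute known to cut fully paired targets. It was at 32.5, 35.7 and 32.1 TPM in WT and 36.5, 36.8 and 36.7 TPM in KO. Every KO library was above every WT library, by 0.75 TPM at the closest, and the KO values lay within 0.37 TPM of each other. The difference was 0.13 (interval -0.16 to 0.42, limma adjusted p = 0.573). Ago3 (ENSMUSG00000028842, chromosome 4, 126331704 to 126429556) was at 39.2, 34.6 and 46.3 TPM in WT and 46.3, 46.8 and 43.8 TPM in KO, with overlap and a difference of 0.20 (interval -0.13 to 0.52, limma adjusted p = 0.451). Ago1 (ENSMUSG00000041530, chromosome 4, 126435012 to 126468583), which lies next to Ago3 on the same strand, was the rarest member, at 3.62, 3.56 and 4.41 TPM in WT and 4.67, 4.33 and 6.31 TPM in KO. WT replicate 3 exceeded the lowest KO library, and the difference was 0.32 (interval -0.27 to 0.90, limma adjusted p = 0.493).

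The make-up of the Argonaute pool overlapped between genotypes, while its sum was higher in these KO libraries, by a test that cannot give a p below 0.1. With Ago4, the remaining family gene (1.08, 1.31 and 1.71 TPM in WT; 0.82, 0.57 and 1.49 TPM in KO), the 4 genes summed to 76.4, 75.1 and 84.4 TPM in WT and 88.3, 88.5 and 88.2 TPM in KO. The sums did not overlap, being higher in KO by 9.71 TPM on average (exact permutation test, two-sided p = 0.1). Among single rows, 11.8% of all tested were higher in KO without overlap, and none of the 4 genes was called. Ago3 made up 50.7 ± 4.43% of the sum in WT and 51.6 ± 1.80% in KO, Ago2 42.7 ± 4.78% and 41.5 ± 0.168%, Ago1 4.90 ± 0.280% and 5.78 ± 1.21%, and Ago4 1.73 ± 0.306% and 1.09 ± 0.540% (SD, n = 3 each). The ranges of all 4 shares overlapped between genotypes. The 4 proteins are close relatives, and reads that fit more than 1 of their transcripts are divided by a model in the authors' quantification.

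Tnrc6a (ENSMUSG00000052707, chromosome 7, 123123885 to 123195296), the scaffold of the silencing complex, was at 38.4, 40.4 and 46.2 TPM in WT and 55.0, 38.4 and 49.4 TPM in KO. KO replicate 2 was the lowest of all 6 libraries and the other 2 KO libraries the highest. The difference was 0.18 (interval -0.19 to 0.55, limma adjusted p = 0.550). Its relatives Tnrc6b and Tnrc6c were at 42.7 ± 0.484 and 16.1 ± 3.19 TPM in WT and 37.8 ± 1.53 and 16.0 ± 2.01 TPM in KO (SD, n = 3), differences of -0.17 and 0.00 on the log2 scale with limma adjusted p of 0.432 and 0.997. Tnrc6b was lower in every KO library than in any WT library, as were 17.1% of all tested rows. Tnrc6a made up 41.5 ± 3.44% of the summed TNRC6 level in WT and 46.7 ± 4.36% in KO, with overlapping ranges (exact permutation test, two-sided p = 0.2).

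None of the 10 members was called by limma at an adjusted p of 0.05, where 5.03% of the 13787 tested rows were called (3.17% lower and 1.86% higher in KO). At an unadjusted p below 0.05 there was 1 member, Dicer1, against 23.8% of all tested rows. The groups did not overlap for 2 members, Dicer1 and Ago2, and for 28.9% of all rows (17.1% lower and 11.8% higher in KO). Neither count stood above the background. Of the 10 members, 6 had a lower mean log2 level in KO and 4 a higher one, with a median difference of -0.10 beside -0.05 over all rows. The intervals of 9 members included 0, and they were wide: the lower bounds for Dgcr8, Prkra, Xpo5 and Tarbp2 reached -1.22, -0.97, -0.83 and -0.82. A fall of the size seen for Dicer1 lies within those 4 intervals and outside those of Drosha, Ago1, Ago2, Ago3 and Tnrc6a.

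**Figure D4:**
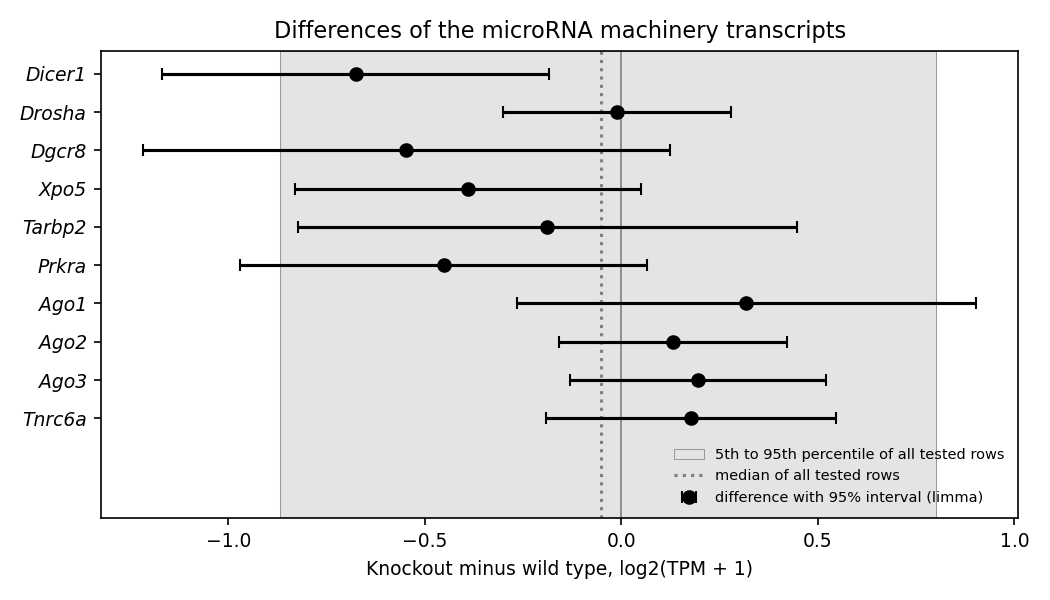
Difference between KO and WT on the log2(TPM + 1) scale for each member (points) with its 95% interval from limma (lines), over the 5th to 95th percentile of all tested rows (shading, -0.87 to 0.80) and their median (dotted). Only the interval of Dicer1 does not reach 0.

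The order of mean levels changed mainly through Dicer1, whose place was not steady among the WT libraries. In WT the order was Tnrc6a, Ago3, Drosha, Dicer1, Ago2 and Xpo5 between 41.7 and 33.1 TPM, where each overlapped its neighbour, then Prkra (17.7 TPM), Tarbp2 (13.1), Dgcr8 (11.9) and Ago1 (3.86). By mean, Dicer1 moved from the fourth place in WT to the sixth in KO. Its KO range (20.8 to 24.0 TPM) overlapped that of Xpo5 and stood apart from those of Ago2 above and Prkra below. Single WT libraries differed: Dicer1 was the highest member in WT replicate 3 (48.7 TPM) and already sixth in WT replicate 2 (26.0 TPM). Tarbp2 overlapped Dgcr8 in both genotypes, and Ago1 was apart from Dgcr8 in both.

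Among 9354 rows with a symbol and a mean of at least 5 TPM, the 5 whose log2 level was most like that of Dicer1 over the 6 libraries were Fem1a (Pearson r = 0.990), Prpf38b (0.987), Hip1r (0.986), Pfkfb3 (0.984) and Tjp1 (0.984). Like Dicer1, each was highest in WT replicate 3 and stood higher in every WT than in any KO library, except Hip1r, whose WT replicate 2 (6.98 TPM) was below KO replicate 1 (7.24 TPM). The values describe these 6 libraries, which share their genotype difference, and values this high are what a search over so many rows selects.

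Genes that act around this machinery mostly had lower means in KO, and few were called. Of 63 tested genes in 5 lists, 3 fell and 0 rose by limma, 4.76% beside 5.03% of all rows, while an unadjusted p below 0.05 was reached by 22 lower and 2 higher genes, and by 23.8% of all tested rows in either direction. Their median difference was -0.28 beside -0.05 over all rows, and 52 of 63 were lower in KO. With libraries rescaled by median of ratios, 49.3% of all called rows were rises in place of 36.9%. The balance of directions over all called rows thus depends on the scaling. The median over all rows moved to 0.02. Among named genes of these lists, Ddx5 went from -0.52 to -0.44 and Gigyf2 from -0.72 to -0.65, while Pabpc1 turned positive (0.005). The median of the 63 genes was not computed at that scaling.

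Of 13 genes of the nuclear step, Adarb1 fell and 12 were not called (median -0.32). The share called was 7.69%, beside 5.03% of all tested rows. Adarb1 encodes ADAR2, which edits adenosines in double-stranded RNA, microRNA precursors among them. It was at 24.9, 42.0 and 28.2 TPM in WT and 13.7, 14.3 and 12.9 TPM in KO, far apart, and differed by -1.12 (SE 0.21, limma adjusted p = 0.0209). The call was lost in 5 of 18 alternative settings: without WT replicate 3 (adjusted p = 0.0543), KO replicate 1 (0.0780) or KO replicate 2 (0.0601), with no trend (0.0646) and in the 4 libraries with Xist (0.0963). Ddx5, a helicase of the Drosha complex, was at 295 ± 30.1 and 207 ± 41.7 TPM (SD, n = 3; limma adjusted p = 0.0873), and Ran, the GTPase that powers Xpo5, at 352 ± 41.7 and 270 ± 14.8 TPM (0.0977). Erh, a partner of Dgcr8, was at 143 ± 38.7 and 173 ± 6.61 TPM (0.314).

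Of 10 chaperone genes that take part in loading Argonaute, all 10 had lower means in KO (median -0.40, beside -0.05 over all rows). Limma called 1 of them, or 10%, beside 5.03% of all tested rows. At an unadjusted p below 0.05 there were 7, all lower in KO, beside 23.8% of all tested rows in either direction. The groups did not overlap for 7, all lower in KO, beside 17.1% of all tested rows that were lower without overlap. Stip1, the co-chaperone HOP, was at 151, 187 and 168 TPM in WT and 112, 119 and 127 TPM in KO. The groups did not overlap, and the difference of -0.49 (SE 0.12) had a limma adjusted p of 0.0480. That call was lost in 13 of 18 alternative settings, where the adjusted p reached 0.161. Hspa8 was at 5237 ± 549 and 4061 ± 577 TPM, Hsp90ab1 at 2293 ± 391 and 1685 ± 187 TPM and Hsp90aa1 at 2061 ± 157 and 1793 ± 87.4 TPM (SD, n = 3), with limma adjusted p of 0.157, 0.120 and 0.301.

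Of 24 tested genes that carry out silencing, Gigyf2 fell and 23 were not called (median -0.20). The share called was 4.17%, beside 5.03% of all tested rows. Gigyf2, which represses translation together with the cap-binding protein Eif4e2, was at 36.1, 41.5 and 42.5 TPM in WT and 23.9, 23.6 and 23.9 TPM in KO, a difference of -0.72 (SE 0.14, limma adjusted p = 0.0229). KO libraries agreed within 0.26 TPM and lay well below WT. The call was lost in 7 of 18 alternative settings: without WT replicate 2 (adjusted p = 0.0654) or 3 (0.0798), without KO replicate 1 (0.0850) or 2 (0.0714), with no trend (0.0611), with the glial level in the model (0.107) and in the 4 libraries with Xist (0.141). Eif4e2 itself was at 97.6 ± 12.4 and 71.1 ± 6.29 TPM (limma adjusted p = 0.0886), the decapping helicase gene Ddx6 at 95.2 ± 14.8 and 71.2 ± 10.9 TPM (0.166) and the poly(A)-binding protein gene Pabpc1 at 150 ± 9.52 and 142 ± 10.5 TPM (0.739; SD, n = 3).

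None of 13 tested genes that alter or destroy precursors and mature microRNAs was called by limma (median -0.26), with an unadjusted p below 0.05 for 2 higher and 3 lower ones, beside 23.8% of all rows. Tsn and Tsnax encode the 2 subunits of C3PO, a nuclease that clears RNA fragments from Argonaute. They were at 65.1 ± 9.89 and 154 ± 22.2 TPM in WT and 47.2 ± 2.15 and 104 ± 13.4 TPM in KO (SD, n = 3; limma adjusted p = 0.102 and 0.0568). Neither overlapped between genotypes, beside 17.1% of all tested rows that were lower in KO without overlap. Pnpt1, a nuclease known to degrade some microRNAs, was at 58.3 ± 5.87 and 71.3 ± 3.97 TPM (0.203), and Zcchc6, which adds uridines to let-7 precursors, at 53.6 ± 6.41 and 44.3 ± 4.38 TPM (0.299).

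**Figure D5:**
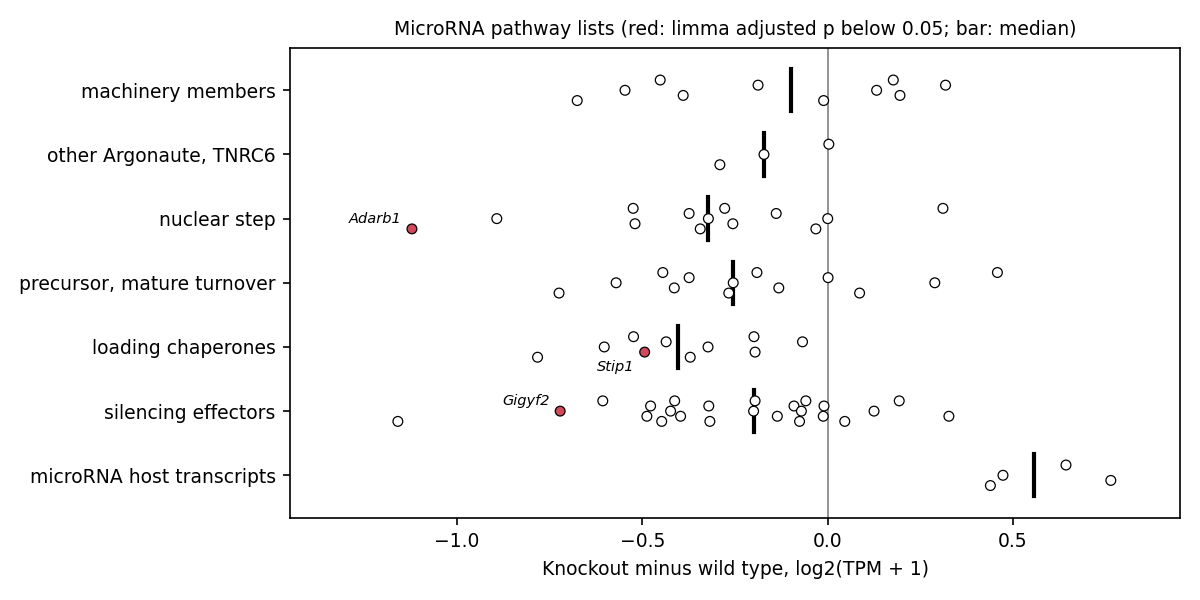
Difference between KO and WT on the log2(TPM + 1) scale for each tested gene (points) of the 10 members, 5 lists of genes that act with them and the microRNA host transcripts; vertical bars are list medians, and red points passed limma's adjusted p of 0.05. The 3 red points, Adarb1, Stip1 and Gigyf2, are all lower in KO, and the 4 host transcripts are all to the right of 0 without a call.

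Of 6 long transcripts that carry microRNA hairpins, 4 were abundant enough to test. All 4 had higher means in KO, and none was called by limma. At an unadjusted p below 0.05 there was 1, higher in KO, beside 23.8% of all tested rows in either direction. Mir22hg, the host of miR-22, was at 20.6, 15.0 and 14.4 TPM in WT and 25.6, 27.3 and 25.9 TPM in KO. Those groups did not overlap, beside 11.8% of all tested rows that were higher in KO without overlap. The Mir22hg difference was 0.64 (SE 0.18, limma adjusted p = 0.0720, and 0.0382 without WT replicate 1). Meg3, Rian and Mirg are maternally expressed noncoding RNAs of 1 imprinted cluster that holds many microRNA genes. Rian was at 353 ± 95.4 and 470 ± 73.6 TPM, Meg3 at 224 ± 131 and 284 ± 73.3 TPM and Mirg at 10.2 ± 6.50 and 16.4 ± 4.17 TPM (SD, n = 3), with limma adjusted p of 0.226, 0.476 and 0.253. All 3 were lowest in WT replicate 2 and overlapped between genotypes. With 1 library left out, their log2 differences were smallest without WT replicate 2 (0.22 for Rian, 0.08 for Meg3 and 0.44 for Mirg). Of those fits, the differences were largest without WT replicate 3 (0.63, 0.92 and 1.21), with no call. With the glial level in the model the Rian difference was 0.86 and was called (limma adjusted p = 0.0344). In that model Meg3 was at 1.211 and Mirg at 1.349, and neither was called (limma adjusted p = 0.0753 and 0.114).

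Rows named for single hairpins hold almost no signal in this table and say nothing of mature microRNAs, which libraries of amplified and sheared cDNA are not made to capture. Of 541 such rows, 499 were listed at 0 in every library and 30 were above 0 in 1 library only. Among the 29 that reached a mean of 1 TPM, limma called none. At an unadjusted p below 0.05 there were 3, all higher in KO, beside 23.8% of all tested rows in either direction. Mir703, with the highest mean, was at 37.0, 25.2 and 11.9 TPM in WT and 39.2, 14.1 and 23.8 TPM in KO.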

How the data were processed

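The authors deposited 1 table of TPM values, 1 column per library and replicates not pooled. Per the submitters' processing notes, reads were handled with the tools cutadapt, Bowtie2 and RSEM 1.2.7, and the build was mm10. No source used here names the annotation. Per the labels' protocols, PicoPure RNA was amplified with an Ovation kit, which adds noise to rare transcripts. TPM keeps no sequencing depth, so no counting interval was computed. Each library sums to 1000000, so a rise of some transcripts lowers others.

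The 13787 rows that averaged 1 TPM or more entered a limma 3.58.1 model (R 4.3.3) of log2(TPM + 1) on genotype alone, with a trend of variance over intensity. Tests were two-sided, with Benjamini-Hochberg adjustment over all of them and a threshold of 0.05. Fold changes on this scale understate changes of low genes. The step was tested on simulated data. Single ratios and sums were compared by exact permutation of 3 against 3 libraries.

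All members were named. From each list up to 4 genes were named: those called, by adjusted p, then those of highest mean. Hairpin rows other than Mir703 that the rule picked are not described. The members and lists were chosen with earlier results of these data known. Of the listed names, Cnot3, Cnot6, Whrn, Hba-a1, Hbb-bs and Hbb-bt were not found. Coordinates, exons and 3′ UTR sequences were read from GENCODE vM21 (GRCm38, which mm10 names), and microRNAs from RefSeq (GRCm38.p6), with Python 3.11.15.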

Additional observations from a re-analysis of the deposited data

How the results depend on the processing

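The call counts, and the log2 differences of members, named pathway genes and long host transcripts, were recomputed in 18 alternative settings. Of these settings, 2 (the 4 libraries with Xist, and a term for replicate 3) were chosen after seeing the data. Sums, ratios, shares and list medians were not recomputed. None of the 18 settings called any of the 9 members other than Dicer1, and 7 of the 9 kept their direction in every one. Dicer1 kept its direction, between -0.90 and -0.34; leaving out 1 library gave -0.90 to -0.46, and it passed the threshold only without WT replicate 2 (-0.90), so the count of called members ranged from 0 to 1. With 1 library left out, Dgcr8 ranged from -0.863 (without WT replicate 2) to -0.365 (WT replicate 3), Xpo5 from -0.563 (WT replicate 1) to -0.212 (WT replicate 2), Prkra from -0.659 (KO replicate 3) to -0.272 (KO replicate 2), Ago1 from 0.181 (KO replicate 3) to 0.409 (KO replicate 2), Ago3 from 0.097 (WT replicate 2) to 0.302 (WT replicate 3) and Tnrc6a from 0.066 (KO replicate 1) to 0.321 (KO replicate 2). The Drosha difference turned positive with median-of-ratios rescaling (0.064), quantile normalization (0.055), array weights (0.015) and the 4 libraries with Xist (0.025), and ranged from -0.054 to 0.035 with 1 library left out (positive without WT replicate 2, 0.021, or KO replicate 3, 0.035). Tarbp2 turned positive in the 4 libraries with Xist (0.14) and without KO replicate 3 (0.044), over a range of -0.468 to 0.044 with 1 library left out. Tnrc6c turned negative in the 4 libraries with Xist (-0.143) and without WT replicate 2 (-0.034) or 3 (-0.106) or KO replicate 1 (-0.061) or 3 (-0.034), over a range of -0.106 to 0.148 with 1 library left out, and Pabpc1 positive with median-of-ratios rescaling (0.005). The cause of these changes was not tested.

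Over all rows, 693 were called, against 378 with no filter, 225 with no trend, 173 with the satellite glia covariate, 204 in the 4 libraries with Xist, and 164 to 835 when 1 library was left out (325 and 265 without WT replicates 2 and 3, 164 and 256 without KO replicates 1 and 2). Of the 63 other pathway genes, 3 were called, against 5 with a mean of at least 5 TPM, 7 with quantile normalization, 0 with no trend, 1 with the glia covariate, 0 in the 4 libraries with Xist, and 0 to 10 with 1 library left out. With the replicate number as a block, 529 rows and no member were called, and Dicer1 was at -0.68 (limma adjusted p = 0.0960); Stip1 lost its call (0.0735). The main model did not pair the libraries by number. Deviations from group means correlated at 0.05, 0.07 and 0.04 for same-numbered libraries 1 to 3 and at -0.098 to 0.07 for the other pairs. WT replicate 3 correlated better with KO replicate 1 (0.07) than with its own number. Yet Xist fell from replicate 1 to 3 in both groups (46.1, 22.2 and 0.06 TPM in WT, and 69.5, 32.9 and 0 TPM in KO). The glial level was highest in replicate 3 and lowest in replicate 2 in both groups. Whether same-numbered libraries were matched is therefore not settled. Ago1 and Ago4 fall under the filter at 5 TPM and have no value there, and Ago4 has none in the 4 libraries with Xist. The depth of the libraries is unknown.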
